A study of Mus musculus with 15 samples.

Results

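A set of 10 genes of the Notch pathway was followed across mouse intestinal organoids and mouse gut tissue. The genes were taken as listed, by symbol, from the 45905 genes of both deposited read tables: 3 receptors (Notch1, Notch2, Notch3), 4 ligands (Dll1, Dll4, Jag1, Jag2) and 3 transcription factors on the nuclear side (Hes1, Hes6, Atoh1). All 10 passed the filter on low counts in organoids and in gut. Poly(A) RNA of 15 libraries was sequenced, 3 in each of 5 groups. The organoids, which are epithelial structures grown in culture, formed 3 groups. Tamoxifen organoids carried the code T41 and were titled iVilCre ERT2JUPfl/fl, that is a floxed Jup gene (plakoglobin, a junction protein) together with an inducible Cre recombinase driven by the villin promoter of intestinal epithelium. DMSO and nativ organoids both carried the code T75 and were titled JUPfl/fl, with no Cre named. DMSO is a common drug solvent, and nativ is used only as a group name. Gut tissue was described as ctr or PG_KO, with a separate code for every library. The floxed Jup gene is thus named in the titles of all 15 libraries, and no age is given. In organoids the code, the Cre and the treatment change together and cannot be told apart, and each code stands for all libraries of its groups. The titles of the gut libraries conflict with their descriptions: those described as ctr are titled with the Cre, and those described as PG_KO are titled JUPfl/fl with DSS colitis, so the labels leave it unsettled which tissue was exposed to DSS, an agent that injures the colon. The labels do not say that replicates came from separate cultures or animals, and p-values then measure only the spread between these libraries.

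Notch is a receptor for ligands carried by neighbouring cells. Binding lets ADAM and gamma-secretase proteases release the part of Notch inside the cell, which joins RBPJ on DNA and switches on targets such as Hes1. In intestinal crypts HES1 represses Atoh1, the factor that starts the secretory fate (goblet, Paneth and enteroendocrine cells), and cells that escape Notch show ligands such as Dll1 and Dll4 to their neighbours, a process called lateral inhibition.

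Levels are given as CPM (counts per 1000000 reads of the library) and, to compare genes with each other, as RPKM (CPM per kilobase of exon). Totals were 25185053 to 30744563 reads per organoid library and 23194385 to 29257641 per gut library, and 3 reads in a library are worth 0.098 to 0.13 CPM. Jup, the targeted gene, was at 69.0, 70.9 and 71.2 CPM in Tamoxifen organoids against 360, 378 and 414 in DMSO and 386, 275 and 395 in nativ. In gut it was at 75.2, 82.8 and 80.3 in PG_KO and 302, 375 and 495 in ctr, so low Jup went with the descriptions rather than the titles. Intestinal identity markers were lower in the T75 organoids, where 4 of 7 were above 1 CPM and 7 of 7 were in Tamoxifen. Their summed levels were 2986 to 3005 CPM in Tamoxifen, 365 to 464 in DMSO and 285 to 425 in nativ. Isx was at 0 in the 3 DMSO libraries, and Cdx1 reached at most 0.0328 CPM there and 0.277 in nativ. The 10 listed genes of bile duct, stomach and pancreas ducts summed to 441 to 445 CPM in Tamoxifen against 3714 to 3778 in DMSO and 2674 to 3677 in nativ, while Sox2 and Gkn1 were at 0 in all 9 organoid libraries. By these markers the name intestinal is borne out less well for the T75 organoids than for the Tamoxifen organoids. The organoid comparisons below hold this difference in tissue identity, and its part in each result was not tested.

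**Figure D1:**
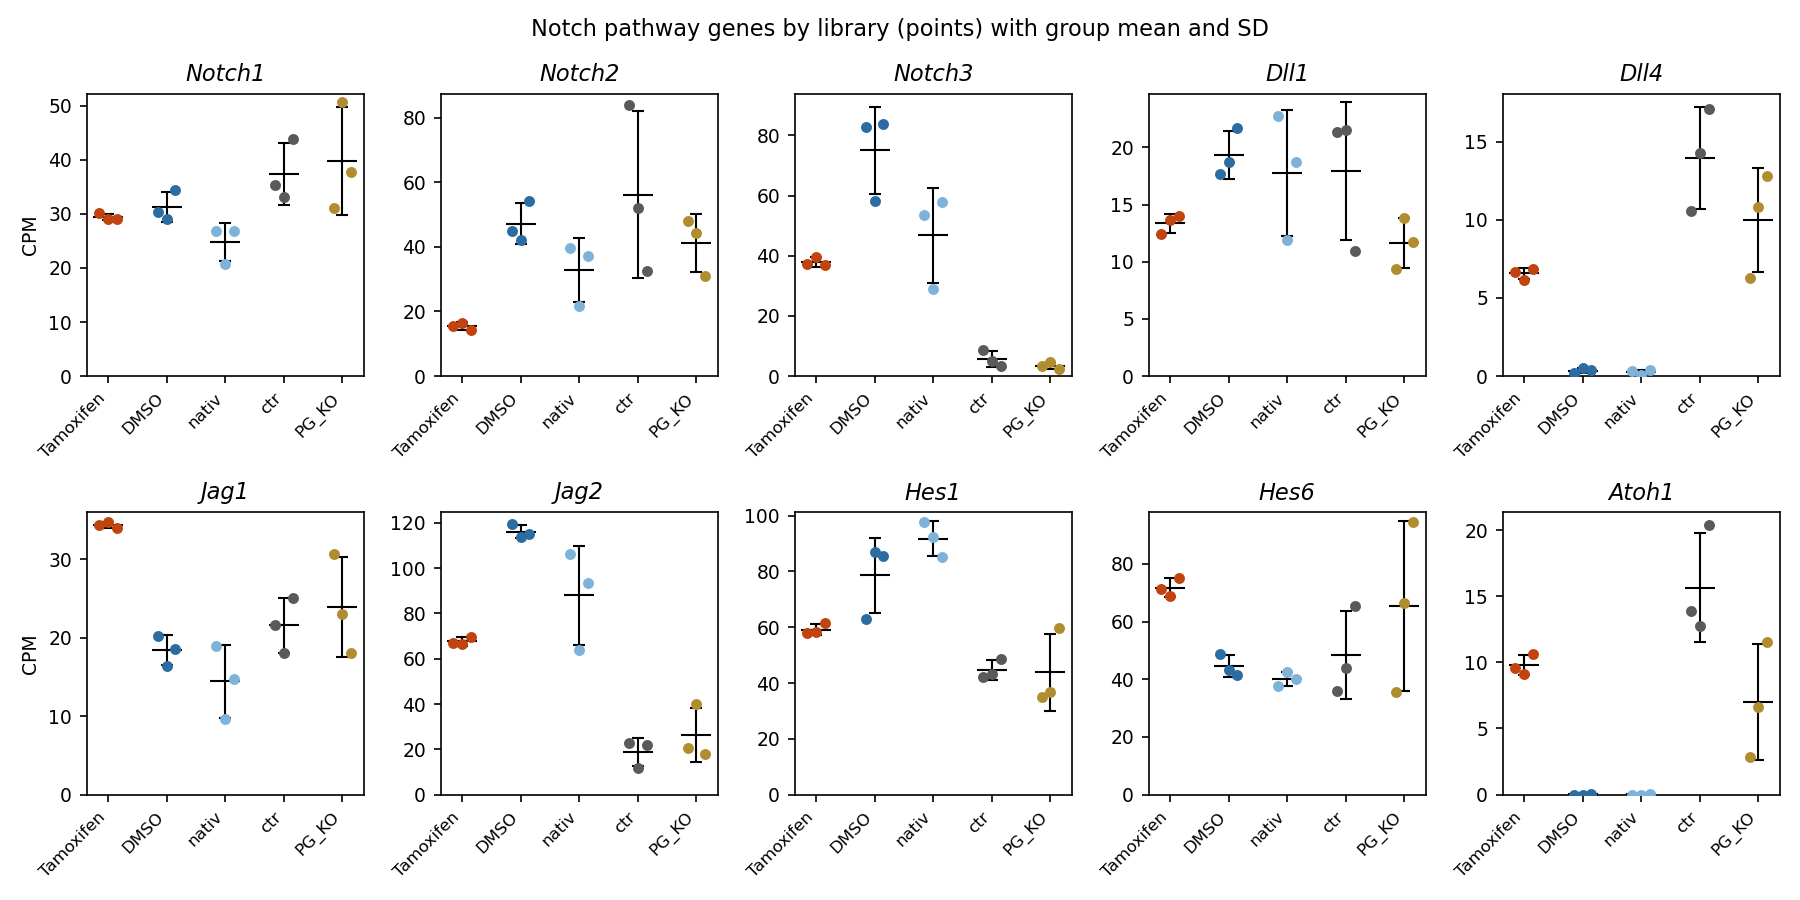
CPM of the 10 genes in each library (points, 3 per group) with the group mean and SD (bars). Atoh1 and Dll4 lie near 0 in the DMSO and nativ organoids and at 6.15 CPM or more in the Tamoxifen organoids, while Notch3 and Jag2 are lower in gut tissue than in organoids.

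In Tamoxifen organoids 2 genes of the secretory branch, Atoh1 and Dll4, rose from near absence, Jag1 and Hes6 rose moderately, and Notch2, Dll1, Jag2 and Hes1 fell, against both T75 groups. Against DMSO, 9 of the 10 genes passed an adjusted p under 0.05 (edgeR, quasi-likelihood test, Benjamini-Hochberg over all genes), 4 higher and 5 lower. Of all 16449 genes tested, 66.3% were called in that comparison, so a high count is the background here, and Atoh1, with 1 read in each T75 group, passed the filter on low counts only through Tamoxifen. Against nativ, 8 of 10 were called, 4 higher and 4 lower, beside 66.9% of all genes. For these comparisons the share of all genes whose groups did not overlap was not computed. Separations of Tamoxifen from T75 libraries described below therefore have no background beside them. Both comparisons use the same 3 Tamoxifen libraries, and their values are therefore set side by side and not counted as 2 observations. The median log2 change of the 10 genes was -0.32 against DMSO and -0.13 against nativ, beside 0.02 and 0.01 over all genes. In bulk RNA, fewer cells of a type and less RNA per cell cannot be told apart.

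Atoh1 (chromosome 6, 64729125 to 64731245, plus strand, in the build GRCm38.p6 of the tables) encodes the basic helix-loop-helix factor that commits a crypt cell to the secretory lineage. It was at 9.56, 9.14 and 10.6 CPM in Tamoxifen organoids, at 0, 0 and 0.0328 in DMSO, and at 0, 0 and 0.0348 in nativ. Every Tamoxifen library therefore lay far above every T75 library, where a single read was counted per group of 3. The 864 reads of the Tamoxifen libraries against 1 read in DMSO give a ratio of 831, with a 95% exact counting interval of 149 to 32871, and the ratio against nativ was 859 (154 to 33977). These intervals cover counting error only. The edgeR adjusted p was 1.7e-08 against DMSO and 1.8e-08 against nativ, with a fitted log2 change of 9.19 in both that depends on the prior count. Atoh1 entered these tests only through Tamoxifen, where it was high, so the p-values add nothing to the read counts.

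Dll4 (chromosome 2, 119325784 to 119335666, plus strand), a Delta ligand of secretory precursors and of endothelium, followed the same order. It was at 6.69, 6.15 and 6.87 CPM in Tamoxifen, at 0.169, 0.516 and 0.393 in DMSO, and at 0.328, 0.104 and 0.383 in nativ. All Tamoxifen libraries were higher than all T75 libraries. The log2 change was 4.13 (SE 0.34; edgeR adjusted p = 1.4e-06) against DMSO and 4.46 (SE 0.35; 1.0e-06) against nativ. The 8 endothelial markers summed to 6.1 to 8.2 CPM in Tamoxifen and 8.0 to 11.6 in the T75 organoids. Cdh5 and Emcn were at 0 in Tamoxifen, Tek and Emcn in DMSO and Emcn in nativ. Of the 3 that were tested, Vwf was called higher and Flt1 lower in Tamoxifen against both T75 groups (edgeR), and their part in the value of Dll4 was not tested. An antisense transcript, Gm14207, overlaps Dll4, and its mean was 2.18 CPM in Tamoxifen, 0.022 in DMSO and 0.011 in nativ. The strand setting of the counting is not given in the sources used here, so reads of the pair cannot be told apart.

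Hes6 and Jag1 also rose. Hes6 (chromosome 1, 91411483 to 91414038, minus strand) encodes a relative of HES1 that is known to counteract it. It was at 71.2, 68.9 and 75.2 CPM in Tamoxifen, at 48.8, 43.2 and 41.6 in DMSO and at 37.8, 42.4 and 40.1 in nativ, with no overlap between Tamoxifen and the others. Its log2 change was 0.62 (SE 0.11; edgeR adjusted p = 0.00061) against DMSO and 0.71 (SE 0.11; 0.00023) against nativ. Jag1 (chromosome 2, 137081451 to 137116520, minus strand), a Jagged ligand, stood at 34.3, 34.7 and 33.9 CPM in Tamoxifen. It stood at 20.2, 16.4 and 18.5 in DMSO and at 18.9, 9.67 and 14.7 in nativ, all below Tamoxifen. The change was 0.84 (SE 0.16; edgeR adjusted p = 0.00088) and 1.15 (SE 0.16; 1.0e-04) on the log2 scale.

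Since these 4 genes were higher together in Tamoxifen organoids, the 250 bases before a start site of each are shown, from RefSeq, in the build GRCm38.p6 and in the direction of the gene. Capitals mark E boxes (CANNTG, read on both strands, which is the same pattern), the motif that factors such as ATOH1 bind as a class.
Atoh1: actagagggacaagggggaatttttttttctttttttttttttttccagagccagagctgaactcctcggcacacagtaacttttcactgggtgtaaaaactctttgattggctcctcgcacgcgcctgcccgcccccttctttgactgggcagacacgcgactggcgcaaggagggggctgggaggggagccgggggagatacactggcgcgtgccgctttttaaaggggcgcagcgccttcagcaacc
Dll4: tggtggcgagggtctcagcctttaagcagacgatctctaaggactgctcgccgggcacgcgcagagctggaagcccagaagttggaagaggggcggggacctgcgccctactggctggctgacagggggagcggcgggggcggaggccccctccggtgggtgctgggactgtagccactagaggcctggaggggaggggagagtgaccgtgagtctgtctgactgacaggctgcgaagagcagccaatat
Jag1: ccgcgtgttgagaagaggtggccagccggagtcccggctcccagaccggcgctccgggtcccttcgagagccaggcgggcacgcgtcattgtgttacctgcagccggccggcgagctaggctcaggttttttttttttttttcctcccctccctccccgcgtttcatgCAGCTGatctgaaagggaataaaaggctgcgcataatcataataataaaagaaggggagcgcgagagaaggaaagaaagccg
Hes6: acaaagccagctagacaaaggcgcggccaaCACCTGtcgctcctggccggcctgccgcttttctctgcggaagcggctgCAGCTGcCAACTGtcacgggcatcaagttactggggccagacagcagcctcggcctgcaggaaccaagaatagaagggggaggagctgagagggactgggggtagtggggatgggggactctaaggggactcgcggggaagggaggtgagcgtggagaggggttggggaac
The windows lie at chr6:64728875-64729124 (plus strand), chr2:119325534-119325783 (plus), chr2:137116521-137116770 (minus) and chr1:91414039-91414288 (minus). The upstream window of Hes6 held 3 E boxes, at -220, -171 and -164 from its start, and that of Jag1 held 1 at -82, while none was found for Atoh1 or Dll4. The 9 members with an entry (all but Hes1) have 11 windows, and 5 of the 11 held an E box, beside 66.2% of all 32851 windows of that length. Those windows belonged to Hes6, Jag1 and Dll1, the last of which was lower in Tamoxifen. Dll1 held E boxes at -220 in 1 window and at -229, -155 and -132 in the other. The N box CACNAG, a motif of HES factors, was in 5 of 11 (Hes6, Notch1, Dll4, Notch2 and Notch3) beside 36.7% of all. The RBPJ cores TGGGAA and TGTGAA, searched on both strands, were in 0 of 11 windows, beside 21.6% and 12.7% of all. These matches describe letters in 250 bases and say nothing of binding.

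Hes1 (chromosome 16, 30065357 to 30067796, plus strand), the classic Notch target and repressor of Atoh1, was lower in the organoids that had Atoh1. It was at 57.8, 58.1 and 61.5 CPM in Tamoxifen, at 63.0, 87.1 and 85.6 in DMSO and at 97.6, 92.3 and 85.2 in nativ. DMSO replicate 1 came within a few CPM of the Tamoxifen libraries, and the groups did not overlap. Its log2 change was -0.48 (SE 0.14; edgeR adjusted p = 0.011) against DMSO and -0.76 (SE 0.14; 0.00070) against nativ. Hes1 was thus present at over 57 CPM in every organoid library, with and without Atoh1. Per length, Hes6 exceeded Hes1 in Tamoxifen (51.2 RPKM ± 2.3 against 34.2 ± 1.2; SD, n = 3), whereas Hes1 exceeded Hes6 in DMSO (45.4 ± 7.8 against 31.7 ± 2.7) and in nativ (53.0 ± 3.6 against 28.6 ± 1.7). In gut the spread was wide, at 34.6 ± 11 for Hes6 and 25.9 ± 2.0 for Hes1 in ctr and at 46.7 ± 21 and 25.4 ± 8.0 in PG_KO.

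Of the receptors, Notch2 fell most, Notch3 fell against DMSO, and Notch1 was not called. Notch2 (chromosome 3, 98013538 to 98150367, plus strand) was at 15.6, 16.6 and 14.1 CPM in Tamoxifen, at 44.9, 42.2 and 54.3 in DMSO and at 39.5, 21.6 and 37.3 in nativ, and all Tamoxifen libraries were below all others. The log2 change was -1.67 (SE 0.17; edgeR adjusted p = 7.4e-06) against DMSO and -1.19 (SE 0.17; 1.0e-04) against nativ. Notch3 (chromosome 17, 32120820 to 32166896, minus strand) was at 37.2, 39.7 and 36.8 CPM in Tamoxifen, at 82.9, 58.2 and 83.9 in DMSO and at 53.7, 28.8 and 57.8 in nativ. Against DMSO its change on the log2 scale was -1.05 (SE 0.19), with an adjusted p of 0.00063 in edgeR. Against nativ the change of -0.40 (SE 0.19) had an adjusted p of 0.084 in edgeR, and nativ replicate 2, at 28.8 CPM, lay below the Tamoxifen libraries. Without that library the change was -0.62 with an edgeR adjusted p of 0.00098, and without nativ replicate 3 it was -0.25 with 0.29. Notch1 (chromosome 2, 26457902 to 26503822, minus strand), with Notch2 a main receptor of crypt stem cells, was at 30.1, 29.1 and 29.03 CPM in Tamoxifen, inside the range of 29.03 to 34.4 in DMSO and above the 20.7 to 26.8 in nativ. Its log2 changes of -0.15 and 0.14 (SE 0.09 each; edgeR adjusted p = 0.17 and 0.22) were not called.

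The other ligands were lower in Tamoxifen. Jag2 (chromosome 12, 112907803 to 112929812, minus strand) was at 66.9, 66.4 and 69.8 CPM there, at 119, 114 and 115 in DMSO and at 106, 63.8 and 93.6 in nativ, where replicate 2 lay below the Tamoxifen range. The log2 change was -0.85 (SE 0.12; edgeR adjusted p = 0.00011) against DMSO and -0.48 (SE 0.12; 0.0046) against nativ. Dll1 (chromosome 17, 15367354 to 15376927, minus strand), a Delta ligand of secretory precursors, was at 12.4, 13.6 and 13.99 CPM in Tamoxifen, at 17.7, 18.7 and 21.7 in DMSO and at 22.8, 11.9 and 18.7 in nativ. Unlike Dll4, it fell, by 0.60 (SE 0.17; edgeR adjusted p = 0.0092) against DMSO and by 0.51 (SE 0.17; 0.020) against nativ on the log2 scale. Against nativ the call was lost without nativ replicate 1 (-0.35, edgeR adjusted p = 0.077) and without Tamoxifen replicate 1 (-0.47, 0.068). With library totals in place of TMM factors, which moved the median of all genes against nativ from 0.01 to 0.13, the changes against nativ were -0.41 for Dll1 (edgeR adjusted p = 0.094) and -0.38 for Jag2 (0.055), and 6 of the 10 genes were called.

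**Figure D2:**
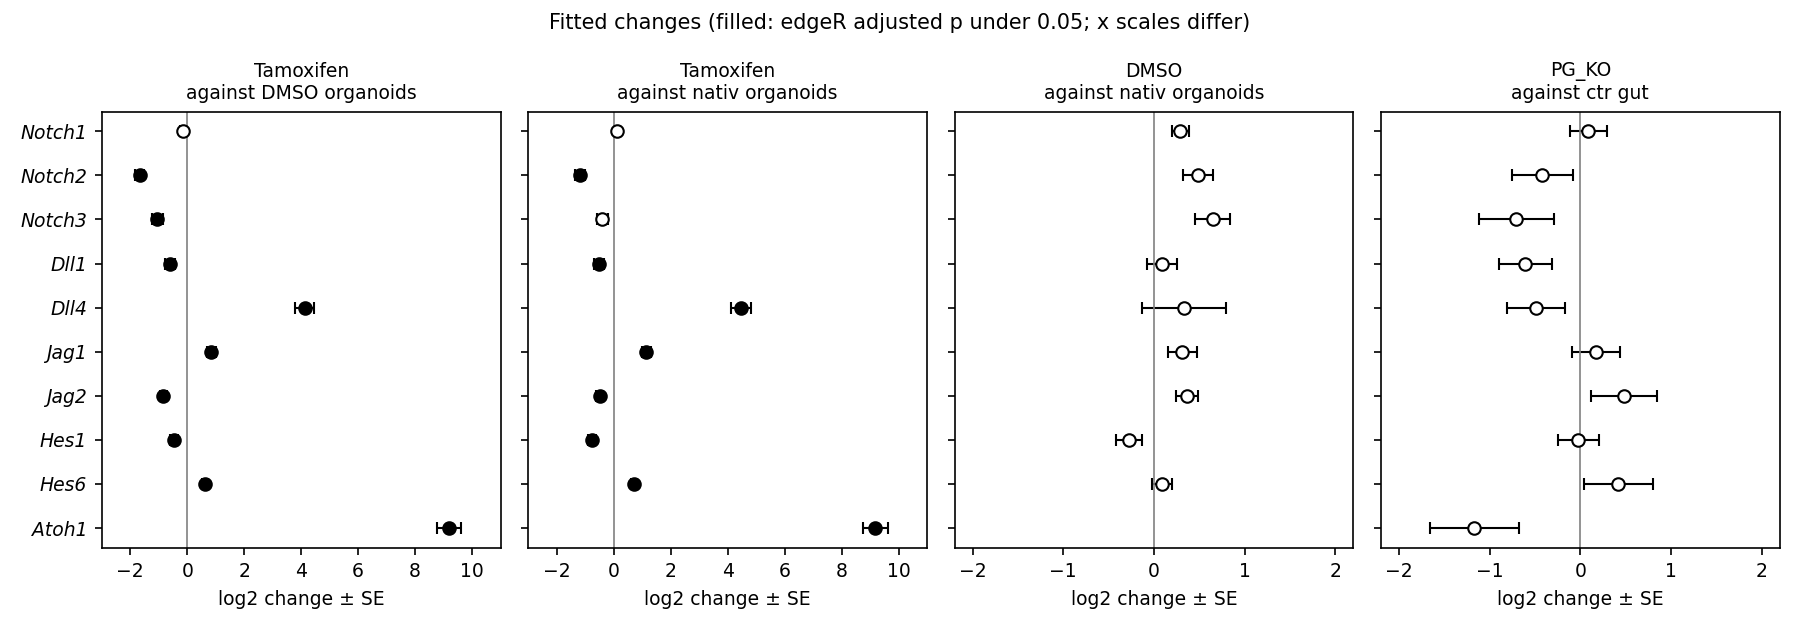
Log2 change with its SE for each gene in 4 comparisons (x axes differ; filled points have an edgeR adjusted p under 0.05). Atoh1 and Dll4 stand far to the right in both Tamoxifen panels, and no point is filled in the DMSO against nativ or gut panels; Atoh1 is left out of the former, with 1 read per group.

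Summed markers of goblet, enteroendocrine and Paneth cells were higher in Tamoxifen, and those of tuft cells were lower. Single markers of the Paneth and tuft lists went the other way. Many of the listed genes had next to no reads in the T75 organoids and passed the filter only through Tamoxifen. No count of higher calls is therefore given for goblet, enteroendocrine and Paneth cells. The 7 goblet cell markers summed to 1211 to 1265 CPM in Tamoxifen, 27.0 to 58.2 in DMSO and 62.3 to 145 in nativ. The 8 enteroendocrine markers summed to 200 to 210 CPM in Tamoxifen and at most 0.6 in a T75 library, where Chgb and Tph1 were at 0 in DMSO and Neurod1 and Sct at 0 in nativ. The 7 Paneth cell markers summed to 4158 to 4266 CPM, 1685 to 2818 and 1970 to 2283, with Defa24 at 0 in DMSO and Pla2g2a at 0 in nativ. By group mean, 1 of these 7 was above 1 CPM in DMSO and 1 in nativ, while 7 of 7 were in Tamoxifen. Each Paneth sum of the T75 organoids was therefore nearly all the reads of 1 gene. Of the 7 Paneth cell markers, 1 was called lower in Tamoxifen against DMSO and against nativ (edgeR). The 7 tuft cell markers summed to 5.7 to 8.9 CPM in Tamoxifen, 138 to 168 in DMSO and 103 to 147 in nativ, with Il25 at 0 in DMSO. Most tuft marker reads of the T75 organoids were those of Ptgs1 (73.2 to 132 CPM) and Dclk1 (26.5 to 49.7), while Trpm5 was called higher in Tamoxifen (edgeR). Of 6 tested tuft markers 3 were called lower and 2 higher, against DMSO and against nativ alike, beside 66.3% and 66.9% of all genes. By group mean, 5 of the 7 were above 1 CPM in Tamoxifen, 4 in DMSO and 3 in nativ. The part of these cell types in the values of Atoh1, Dll4 and Hes6 was not tested.

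Among the receptors, measured per length, Notch3 led in all organoid groups and was a small part in gut. Notch3 made up 48.9% ± 0.86 (SD, n = 3) of the RPKM of the 4 Notch receptors in Tamoxifen, 53.0% ± 3.8 in DMSO and 48.4% ± 3.7 in nativ, but 4.5% ± 1.6 in ctr gut and 2.7% ± 0.44 in PG_KO. Notch2 made up 15.8% ± 0.80 in Tamoxifen, 26.7% ± 2.1 in DMSO and 27.2% ± 1.3 in nativ, and Notch1 33.4% ± 1.2, 19.7% ± 1.7 and 23.6% ± 3.9. Notch4, a receptor of blood vessels that is not among the 10, took 33.3% ± 11 in ctr gut and 43.4% ± 1.9 in PG_KO, and under 2.2% in every organoid library. Summed, the 4 receptors came to 9.3 RPKM ± 0.28 in Tamoxifen, 16.9 ± 2.5 in DMSO, 11.4 ± 3.2 in nativ, 14.97 ± 2.7 in ctr and 15.03 ± 2.4 in PG_KO.

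Among the ligands Jag2 led in organoids and the ligands were more even in gut. Jag2 took 61.0% ± 0.52 of the ligand RPKM in Tamoxifen, 77.2% ± 1.7 in DMSO and 74.7% ± 1.4 in nativ. Dll4 took 9.0% ± 0.44 in Tamoxifen against 0.37% ± 0.18 and 0.33% ± 0.14, and Jag1 13.9% ± 0.50 against 5.5% ± 0.47 and 5.4% ± 0.35. The share of Dll1 differed less, at 15.7% ± 0.68 in Tamoxifen, 16.8% ± 1.7 in DMSO and 19.5% ± 0.98 in nativ. In ctr gut Dll1 (32.1% ± 11), Dll4 (29.1% ± 7.3) and Jag2 (25.4% ± 7.3) were close, and in PG_KO they stood at 22.6% ± 2.0, 22.6% ± 7.8 and 37.6% ± 8.8.

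**Figure D3:**
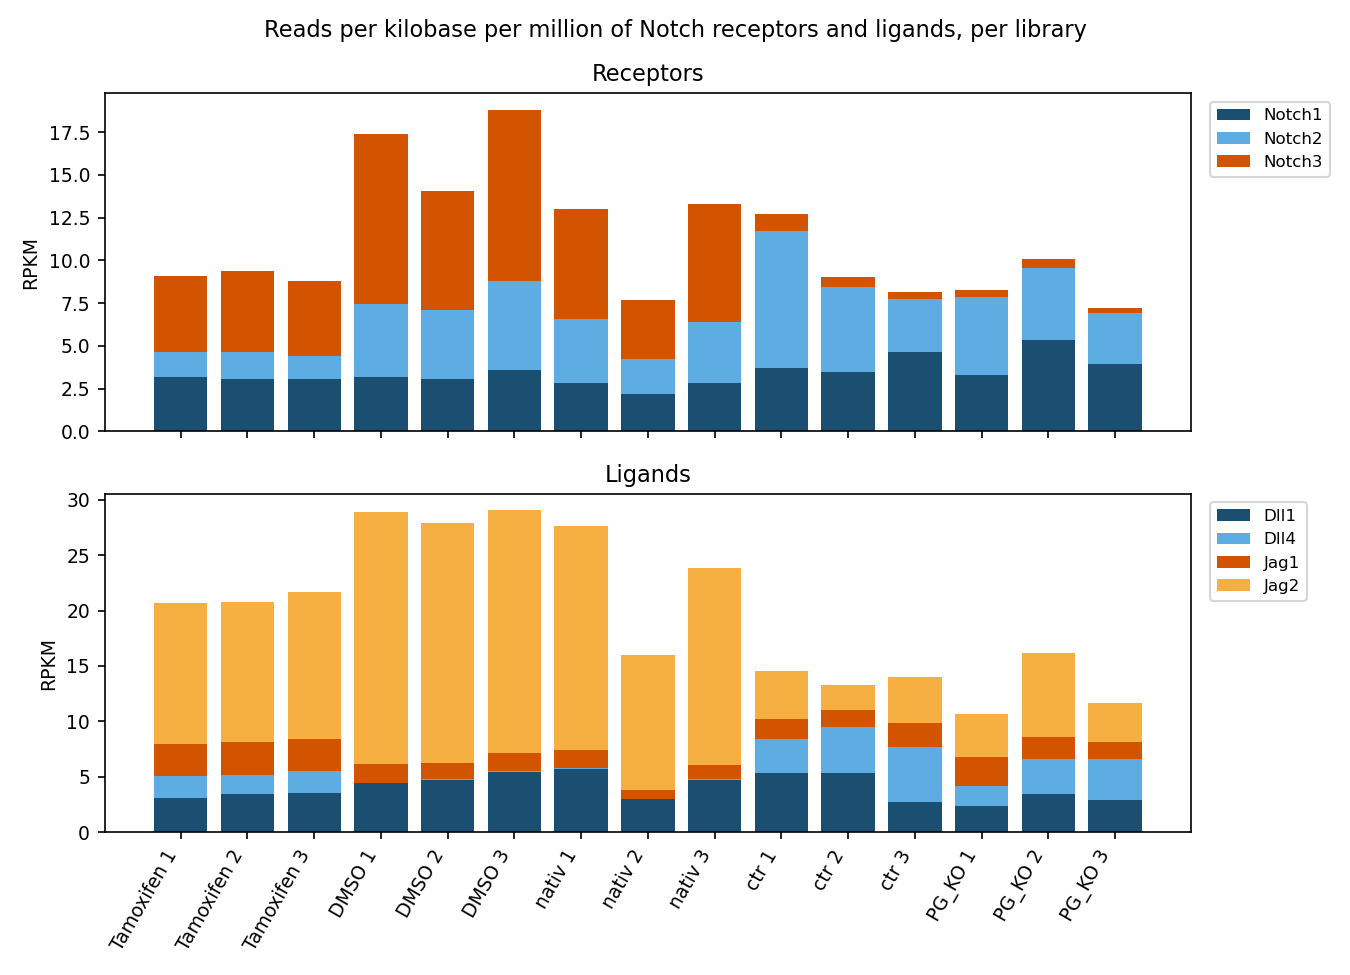
RPKM of the 3 receptors and 4 ligands among the 10 genes, stacked per library. Notch3 and Jag2 take the largest part of their bars in organoids and a smaller one in gut, and nativ replicate 2 has the lowest bars of its group.

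Across all 5 groups the level of some genes varied little and that of others by orders of magnitude. The highest group mean of Notch1 was 1.61 times the lowest, that of Dll1 1.66 times and that of Hes6 1.79 times. The ratio was 22.02 for Notch3, 51.4 for Dll4 and 6.18 for Jag2. In falling order of the mean CPM, Notch3 ran DMSO, nativ, Tamoxifen, ctr, PG_KO, and nativ with Tamoxifen and ctr with PG_KO overlapped. Dll4 and Atoh1 ran the other way, with ctr gut highest (13.96 CPM ± 3.3 and 15.7 ± 4.1; SD, n = 3) and the T75 organoids lowest. For Dll4 the PG_KO and Tamoxifen libraries overlapped with each other, and PG_KO with ctr, while for Atoh1 Tamoxifen overlapped with PG_KO and not with ctr. Jag1 was highest in Tamoxifen, whose 3 libraries exceeded those of every other group.

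Between the 2 groups of T75 organoids, DMSO and nativ, the 3 receptors and Jag2 had lower levels in nativ, without a call. Of the 10 genes 0 were called and 0% of all genes were (edgeR, 16449 tested), while 4 of 10 and 2408 of all genes had an unadjusted p under 0.05. DESeq2 called 157 genes, 0 of them among the 10. The 4 were Notch1, Notch2, Notch3 and Jag2, with log2 changes of 0.29, 0.49, 0.65 and 0.37 (SE 0.09, 0.16, 0.19 and 0.12; edgeR adjusted p = 0.29 to 0.30). In these 4 genes every DMSO library lay above every nativ library, which 14.1% of all tested genes showed in either direction. Nativ replicate 2 was the lowest of the 6 libraries for all 4 genes, and without it the changes were 0.24, 0.31, 0.44 and 0.24, with an edgeR adjusted p of 0.46 for each. Atoh1 had 1 read in each group and no fold is given.

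In gut tissue described as PG_KO, Atoh1 was the lowest relative to ctr, and 0 of the 10 genes were called, beside 0% of the 18043 genes tested (edgeR). Jup, whose gut groups lay far apart, was therefore not called either. In a simulation of the gut libraries the test had little power. It recovered 5% of the differences at a log2 size of 1 and 57% at 2, with 11 false calls. Only a small part of the 17770 genes tested there was made to differ, so recovery in the real libraries can be different. The missing calls in gut thus do not show equal levels, and 0% is a weak background. At an unadjusted p under 0.05 stood 1 of 10 and 2705 of all genes, and DESeq2 called 458 genes, 0 of them among the 10. Atoh1 was at 13.9, 12.7 and 20.3 CPM in ctr and at 2.82, 6.65 and 11.5 in PG_KO. It alone among the 10 had groups that did not overlap, as did 18.6% of all tested genes. The log2 change was -1.17 (SE 0.49; edgeR adjusted p = 0.33), and over the alternatives it ran from -1.73 to -0.80 with adjusted p from 0.17 to 1.00.

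The Delta ligands were also lower in PG_KO on average, within the spread. Dll1 was at 21.3, 21.5 and 10.9 CPM in ctr and 9.37, 13.8 and 11.8 in PG_KO (log2 change -0.61, SE 0.29), with ctr replicate 3 inside the PG_KO range. Dll4 was at 10.6, 14.3 and 17.1 in ctr and 6.31, 10.8 and 12.8 in PG_KO (-0.49, SE 0.32). For Notch2 the values were 84.0, 51.995 and 32.6 in ctr and 48.1, 44.1 and 31.1 in PG_KO (-0.42, SE 0.34). Notch3, a receptor of vessel-wall muscle and pericytes, was at 8.52, 4.96 and 3.44 in ctr and 3.28, 4.55 and 2.39 in PG_KO (-0.70, SE 0.42). For both receptors ctr replicate 1 was highest and ctr replicate 3 lowest of the ctr libraries, as in the smooth muscle sums given next. Within PG_KO the order differed: replicate 3 was lowest for both receptors and had the highest smooth muscle sum. Hes6 ran from 35.6 to 94.4 CPM within PG_KO and from 36.0 to 65.6 in ctr (0.42, SE 0.38). The changes of Notch1, Jag1, Jag2 and Hes1 were 0.09, 0.17, 0.48 and -0.02 (SE 0.21, 0.26, 0.37 and 0.23), and the groups overlapped for each.

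Cell type markers differed between these gut libraries beside the Notch genes. The 7 goblet cell markers summed to 9746, 7886 and 3883 CPM in ctr and to 592, 1510 and 1218 in PG_KO, without overlap, with a median log2 change of -2.63, 0 of 7 called by edgeR and 6 of 7 called lower by DESeq2. The 8 smooth muscle and pericyte markers summed to 4600, 3562 and 727 in ctr and to 696, 959 and 1209 in PG_KO, with 0 of 8 called by either tool, and the 8 endothelial markers to 292, 172 and 59.8 against 69.1, 125 and 39.3, with 0 of 8 called by either. Markers of fibroblasts ran from 1027 to 4119 in ctr and from 709 to 1484 in PG_KO (0 of 7 called by either), and those of immune cells from 664 to 1732 and from 248 to 836 (0 of 8 called by either). No listed gene of goblet, smooth muscle, endothelial or fibroblast cells was at 0 in a gut group. The part of these cells in the values of Atoh1, Notch2 and Notch3 was not tested.

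**Figure D4:**
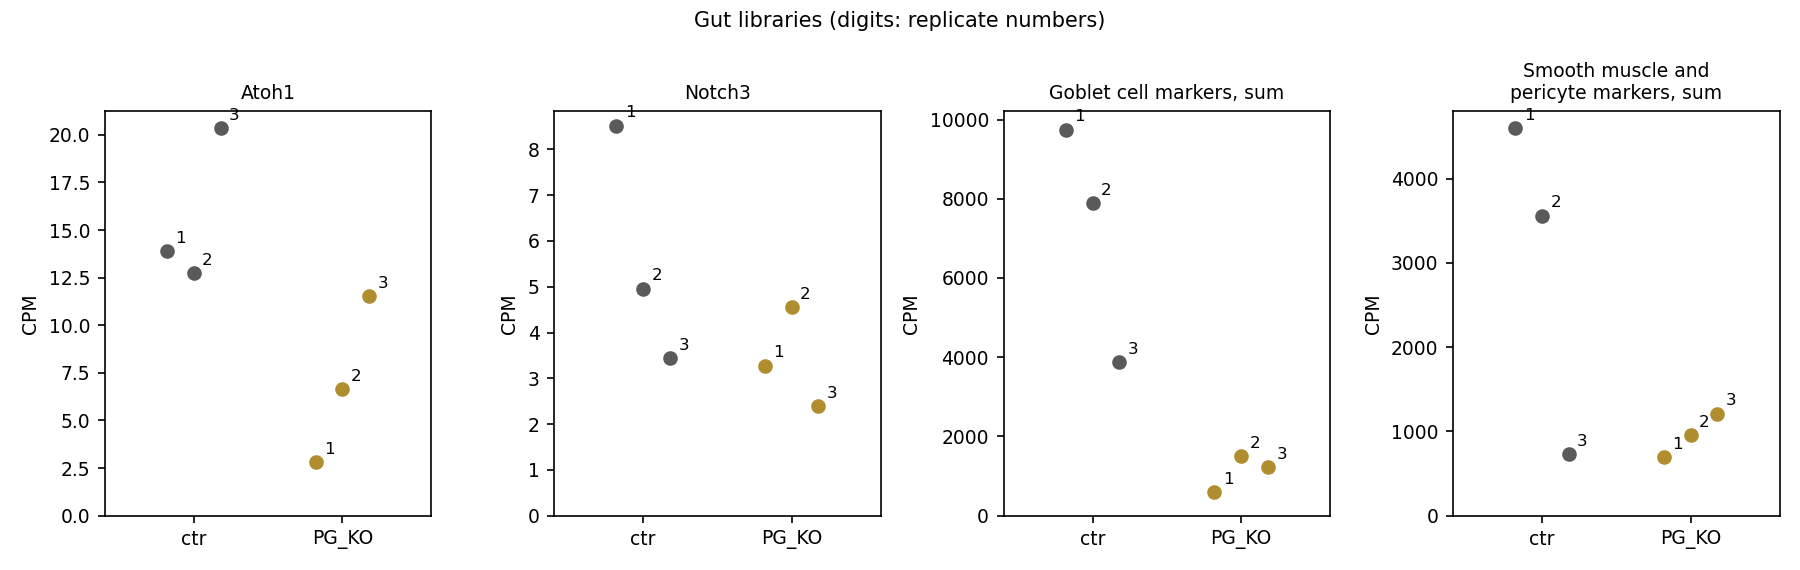
CPM of Atoh1 and Notch3 in the 6 gut libraries beside the summed CPM of goblet cell and of smooth muscle and pericyte markers (digits are replicate numbers). Atoh1 and the goblet sum do not overlap between groups, whereas Notch3 and the muscle sum are highest in ctr replicates 1 and 2. Within PG_KO, replicate 3 has the lowest Notch3 and the highest muscle sum.

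The changes in organoids (Tamoxifen minus DMSO) and in gut (PG_KO minus ctr) were compared by an interaction term in a single edgeR fit of 12 libraries. Of the 10 genes 4 differed, beside 36.4% of all 19141 genes tested, and the median difference over all genes was 0.14. Dll4 rose in organoids and was not called in gut (-0.49), a difference of 4.66 (SE 0.50; edgeR adjusted p = 4.7e-05). For Atoh1 the difference was 10.43 (SE 0.88; 8.8e-06), a value that rests on 1 read in DMSO. Jag2 and Notch2 fell in organoids and were not called in gut (0.48 and -0.42), with differences of -1.28 (SE 0.39; edgeR adjusted p = 0.025) and -1.20 (SE 0.41; 0.041). With nativ organoids as the control in place of DMSO these were -1.03 (edgeR adjusted p = 0.079) and -0.83 (0.14), no longer called, and Hes1 was called instead (-0.78, 0.031). The comparison joins Cre, code and treatment in organoids with the unsettled labels of gut.

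Further genes of the pathway, from lists drawn up with earlier results of these data known, were read in the same fits. The counts of calls below stand beside 66.3% of all genes called against DMSO and 66.9% against nativ, and shares near these are no result about a list. In the nuclear complex 9 of 14 genes were lower and 1 higher in Tamoxifen than in DMSO, and 8 lower and 2 higher than in nativ, that is 10 of 14 called in each (medians -0.46 and -0.38, beside 0.02 and 0.01 over all genes; edgeR). Rbpj, the DNA-binding partner of Notch, fell by 0.76 (SE 0.11) against DMSO and against nativ, from 65.7 to 77.5 CPM in DMSO and 56.9 to 79.1 in nativ to 44.3 to 46.0. Maml2, a coactivator of the Mastermind family, stood at 0.72 to 1.43 CPM in Tamoxifen and 15.5 to 28.3 in the T75 organoids (-4.66 and -4.52, SE 0.24 each). Cir1, a corepressor component, fell by 1.06 (SE 0.13) against DMSO.

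Of 10 negative regulators 4 were higher and 5 lower against DMSO, and 4 and 4 against nativ, beside 66.3% and 66.9% of all genes called (medians -0.24 and 0.04; edgeR). Among these 10 was Dtx1, which had 0 reads in Tamoxifen and passed the filter on low counts only through the T75 organoids. Numbl, an adaptor related to Numb, stood at 1.40 to 1.97 CPM in Tamoxifen and at 21.9 to 32.3 in the T75 organoids (-4.21 and -3.96, SE 0.14 each). Itch, a ubiquitin ligase that acts on Notch, rose by 0.56 (SE 0.09) and 0.63 (SE 0.09), and Numb itself by 0.55 and 0.68. Of 8 tested modifiers of ligands and receptors 3 were higher and 4 lower against DMSO (3 and 3 against nativ; medians -0.25 and -0.11). Neurl1a and Neurl1b, both Neuralized-type ubiquitin ligases for ligands, changed in opposite directions, by -2.44 (SE 0.18) and 0.84 (SE 0.11) against DMSO. Pofut1, which adds fucose to Notch, rose by 1.17 (SE 0.15). Of 10 genes of the cleaving proteases 2 were higher and 5 lower against DMSO, and 2 and 3 against nativ, close to or below 66.3% and 66.9% (medians -0.21 and -0.07), with Aph1b, a subunit of gamma-secretase, at -0.57 (SE 0.10) against DMSO.

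Of 8 tested genes listed as relatives of Hes1 or other Notch targets, 5 were lower and 2 higher against DMSO. Against nativ 3 were lower and 2 higher, beside 66.3% and 66.9% of all genes called in the 2 comparisons (medians -0.93 and -0.92, edgeR). Hey1 was at 0 to 0.107 CPM in Tamoxifen and 1.25 to 2.06 in the T75 organoids. It passed the filter on low counts only through the T75 organoids. Its fitted change (-4.80, SE 0.52, against DMSO) therefore depends on the prior count. Hes2, listed as a relative of Hes1, was at 7.90 to 8.62 CPM in Tamoxifen and 0.45 to 1.31 in the T75 organoids (3.04, SE 0.23, against DMSO). Ccnd1 and Id3 fell by 1.82 (SE 0.19) and 1.29 (SE 0.13). Of the 3 tested among other receptors and ligands, Dlk2 and Notch4 were higher (1.61 and 0.77) and Dlk1 lower (-2.75) against DMSO, and the 3 had the same calls against nativ.

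Several factors of the secretory lineage had next to no reads in the T75 organoids, as did Atoh1. Of 14 listed 11 were tested, some of which passed the filter only through Tamoxifen, so no count or median over them is given. Spdef, a factor of goblet and Paneth cell maturation, was at 7.84 to 8.73 CPM in Tamoxifen and at most 0.277 in the T75 organoids (5.43, SE 0.42, against nativ). Neurog3, which starts the enteroendocrine fate, was at 6.65, 7.51 and 7.62 CPM in Tamoxifen and at 0 in all 6 T75 libraries, at least 206-fold higher than in DMSO and 213-fold higher than in nativ, against 3 reads over the group. Gfi1, a repressor that separates goblet and Paneth from enteroendocrine cells, had 254 reads in Tamoxifen and 2 in DMSO, a ratio of 122 (95% exact counting interval 33.5 to 1014). Rfx6 and Neurod1, both factors of endocrine cells, had 116 and 184 reads in Tamoxifen against 0 and 1 in DMSO and 1 and 0 in nativ. Rfx6 was at least 37.2-fold higher than in DMSO, and Neurod1 at least 61.0-fold higher than in nativ. Sox4, a factor of endocrine and tuft cell precursors, went the other way and fell by 1.47 (SE 0.11) and 1.52 (SE 0.11).

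**Figure D5:**
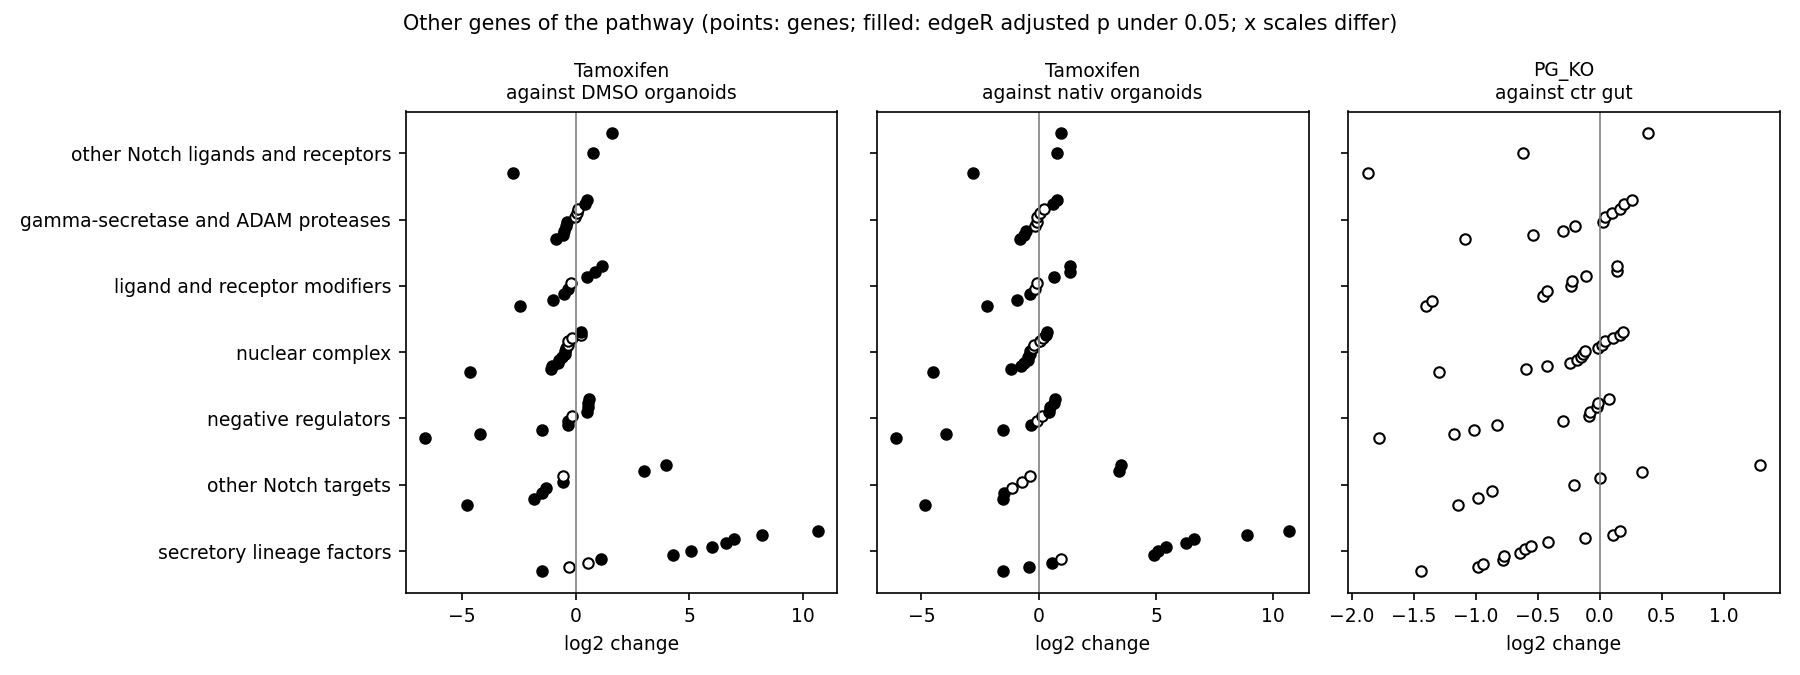
Log2 change of each tested gene of 7 further lists in 3 comparisons (x axes differ; filled points have an edgeR adjusted p under 0.05). Secretory lineage factors reach from -1.47 (Sox4) to 10.67 (Neurog3, a fitted value against 0 reads) against DMSO, most of the nuclear complex lies left of 0, and no point is filled in the gut panel.

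In DMSO against nativ, and in gut, 0 genes of these 7 lists were called by edgeR. DESeq2 called 1 gene in each, Neurl1b in DMSO against nativ (log2 change 0.51, adjusted p = 0.017) and Spdef in gut (-1.43, 0.040). In gut, Spdef was at 28.4, 22.1 and 55.2 CPM in ctr and at 8.91, 14.8 and 15.5 in PG_KO, without overlap (log2 change -1.44, SE 0.40; edgeR adjusted p = 0.33), and Gfi1 had a change of -0.78 (SE 0.38). Neurog3 ran from 0.143 to 7.31 CPM within ctr and from 0.458 to 6.05 within PG_KO, so its change of -0.12 (SE 1.28) has little precision. The median over the 12 secretory factors tested was -0.62, over the 14 nuclear genes -0.13 and over the 10 protease genes 0.03, beside -0.03 over all genes. For Maml2 the gut values were 10.1, 6.94 and 3.14 in ctr and 2.61, 2.53 and 2.91 in PG_KO (-1.29, SE 0.43; edgeR adjusted p = 0.33).

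The genes whose log2 CPM most resembled each member over the 15 libraries were found by Pearson r among 14078 genes. The libraries of a group share their source, so r mostly follows differences between the 5 groups. Among the 3 most alike were Hepacam2 (r = 0.995) and Gimap1 (0.990) for Atoh1 and Ceacam20 (0.989) and Itih5 (0.988) for Dll4, and those of Notch3 were Ogdhl (0.994), Crim1 (0.990) and Pskh1 (0.988). Jag2 had Cdk6 (0.989), Cd81 (0.987) and Dyrk3 (0.984) as its nearest genes, and Notch2 had Syde1 (0.972), Hspg2 (0.971) and Ccdc88a (0.962). The nearest gene of Hes1 was Mknk2 (0.952), of Dll1 Ptch1 (0.943), of Jag1 Fmn1 (0.942), of Notch1 Rint1 (0.941) and of Hes6 Mvd (0.924). Over the 9 organoid libraries alone, with 13860 genes, the nearest were other genes: Rcbtb1 for Atoh1 (0.999), Atl2 for Dll4 (0.997) and Ptprs for Notch2 (0.997).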

How the data were processed

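The deposited values are expected counts per gene, 1 table for organoids and 1 for gut, which the authors made on GRCm38.p6, per the submitters' processing notes, which name STAR 2.7.2b, featureCounts 1.6.4 (Subread), cutadapt 2.5, bcl2fastq 2.20.0.422 and DESeq2. Strand setting and annotation release are not given in the sources used here. Between 10.4% and 13.7% of values per library were not whole (any fractional part), and values were rounded before fits. CPM use library totals, and RPKM the exon lengths of the tables. Libraries were grouped by description. All genes of 9 organoid or 6 gut libraries were fitted with edgeR 4.0.16 (TMM, filterByExpr, robust quasi-likelihood F test, Benjamini-Hochberg) in R 4.3.3, with calls at an adjusted p under 0.05, and SEs are the absolute change over the square root of F. The tests were checked on simulated data. Alternatives were DESeq2 1.42.0, limma-voom (limma 3.58.1), other factors and filters, and left-out libraries. The 10 genes, the 7 pathway lists and the 13 marker lists were chosen with earlier results of these data known. Of each list the text names genes by smallest p, 4 where any was called and 2 otherwise, and those at 0 in a whole group. Cdx1, and Neurog3 in gut, were named after their values were seen. Some genes that this rule picks are not reported here. Deviations from the group means correlated at -0.12 to 0.19 between same-numbered organoid libraries of different groups, and at -0.15 to 0.15 between differently numbered ones. In gut these ranges were -0.18 to 0.29 and -0.31 to 0.21. The ranges overlapped, and the numbers were not taken as pairs in the main fits. Figures used matplotlib 3.10.9.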

Additional observations from a re-analysis of the deposited data

Results flagged for a closer look

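The log2 change differed between organoids (Tamoxifen against DMSO) and gut (PG_KO against ctr) by an interaction test in edgeR for 4 genes, all described above: by 10.43 for Atoh1, 4.66 for Dll4, -1.28 for Jag2 and -1.20 for Notch2. The value of Atoh1 rests on 1 read in DMSO organoids, and those of Jag2 and Notch2 were not called with nativ organoids as the control.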

How the results depend on the processing

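Beside the calls named above as lost or gained, the direction and the side of the threshold of the 10 genes held in the Tamoxifen comparisons under the alternatives run, and leaving out each library gave 9 called against DMSO and 7 to 9 against nativ. No further call changed with the replicate block, which left 9 called against DMSO (10823 of all genes), 8 against nativ (10838), and 0 in DMSO against nativ and in gut. In DMSO against nativ, DESeq2 called 157 genes and a fit without the low-count filter 2, and leaving out a library gave 0 to 1. In gut these were 458 and 5, and 0 to 1478, the last without ctr replicate 3. Directions turned only where no call was made. In gut, Hes1 was at 0.0016 without the low-count filter and ran from -0.288 to 0.117 when a library was left out, Notch1 from -0.0841 to 0.278 and Jag1 from -0.0775 to 0.359. Against ctr replicate 3 alone, an alternative added after the data were seen that leaves 1 control library, assumed to vary like the others, Notch1 was at -0.18, Notch2 at 0.30, Dll1 at 0.049, Jag1 at -0.088 and Hes6 at -0.0498. In DMSO against nativ, leaving out a library moved Dll1 from -0.0772 to 0.265 and Dll4 from -0.0152 to 0.69. The difference between organoids and gut for Notch3 was 0.24 with nativ as the control. With library totals the difference for Jag1 was called (0.75, edgeR adjusted p = 0.047). The causes were not tested. With 3 libraries per group and the spread of the gut libraries, a missing call there does not show equal levels, and a level under 0.098 CPM rests on fewer than 3 reads.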
